A study of Mus musculus with 10 samples.

Results

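Keratins are the intermediate filament proteins of epithelial cells, and their messenger RNAs were followed here in cultured mouse keratinocytes and in CD8+ T cells. The members were chosen by name and annotation, as every protein-coding gene whose symbol is Krt followed by a number and, at most, a letter. The tables held 53 such genes among 25814, of which 28 were type I and 25 were type II, with 27 on chromosome 11 and 26 on chromosome 15. They were sorted into basal (Krt5, Krt14, Krt15), stress (Krt6a, Krt6b, Krt16, Krt17), suprabasal (Krt1, Krt2, Krt10) and simple epithelial (Krt7, Krt8, Krt18, Krt19) classes, 15 hair keratins, 7 inner root sheath keratins and 17 others.

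The series compared primary keratinocytes and activated T cells kept apart or together, with 2 RNA-seq libraries in each of 5 groups. The keratinocytes were grown from tail skin of adult mice (C57/B6 by the study's methods) in low-calcium serum-free keratinocyte medium and were collected either from cultures without T cells or after co-culture, the T cells having been washed off before lysis. The CD8+ T cells were taken from spleen with magnetic beads and activated with antibodies to CD3 and CD28 for 1 d. They were collected then, after 1 more day in the medium that the labels call keratinocyte medium, or after 1 d of co-culture with keratinocytes. The sample labels give the co-culture as 1 d and the series design text as 1 h. All T cell groups carry the activation, no group holds unstimulated T cells, and nothing in the labels ties a library to an animal, so that p-values measure the spread between these libraries, which may be technical.

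Type I and type II keratins form obligate pairs, and the pair in use changes with the state of the epithelium. Krt5 and Krt14 are made in the basal layer of the epidermis, Krt1, Krt10 and Krt2 in the layers above it, Krt6a, Krt6b, Krt16 and Krt17 in wounded, hyperproliferative or cultured epidermis, and Krt8, Krt18, Krt7 and Krt19 mainly in simple and glandular epithelia.

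Exon reads came to 14510546 to 18019609 in the keratinocyte libraries and 12864931 to 15926898 in the T cell libraries. Levels are given as the deposited RPKM, exon reads scaled to exon length and to the reads of the library, and 3 reads over 1 kb of exon, taken as the floor of detection, corresponded to 0.158 to 0.212 RPKM. Libraries of a group differed by far more than the sampling of reads, with a mean chi-square per degree of freedom of 94.2 to 209. The keratinocyte libraries held Trp63, a transcription factor of stratified epithelia, at 7.46 to 14.1 RPKM, against at most 0.0548 RPKM in T cells. They also held T cell transcripts in every library: summed over 8 T cell markers, 101 and 402 RPKM alone and 131 and 710 RPKM after co-culture, against 1210 to 2780 RPKM in T cells. Of these markers, Cd8a reached only 0.118 to 1.16 RPKM in the keratinocyte libraries, while Cd4, which is not among the 8, reached 11.4 to 84.5 RPKM. The T cell libraries held Cd8a at 110 to 334 RPKM and Cd4 at 16.8 to 102 RPKM. Of the 2 genes on the Langerhans cell list, Cd207 was without a read in every library. The other, Epcam, ranged from 53.6 to 132 RPKM across keratinocyte libraries, against 0.952 to 4.54 RPKM across those of T cells. Which cells gave the Epcam reads was not tested.

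Keratin transcripts made up 4.95% to 5.62% of all exon reads in the 4 keratinocyte libraries. At least 1 read fell on 39 of the 53 keratins there, and 16 reached a mean of 5 RPKM in at least 1 group. No read of any library fell on 12 keratins. The keratin pool was therefore carried by few genes: 11 keratins reached 100 RPKM in a keratinocyte library, and the basal and stress classes together held nearly all of the summed keratin RPKM. Basal keratins took 41.2% and 47.3% of it in keratinocytes alone and 45.1% and 56.5% after co-culture, and stress keratins 54.6% and 49.9% alone and 51.7% and 42.5% after co-culture.

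**Figure D1:**
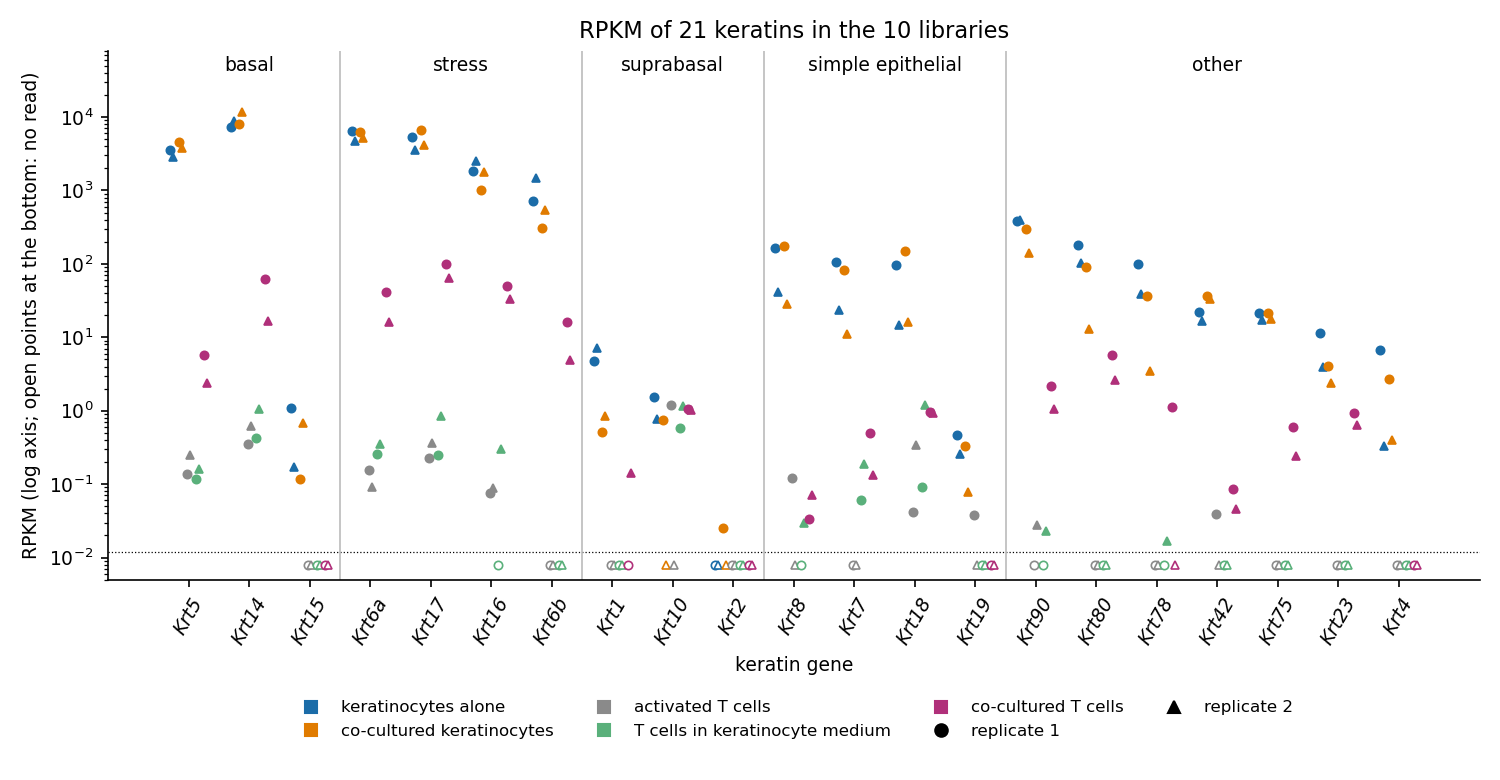
RPKM (log axis) of 21 keratins in the 10 libraries, with a point per library, colours for the 5 groups and shapes for the replicate; open points below the dotted line had no read. In keratinocytes (blue and orange) Krt14, Krt6a, Krt17 and Krt5 lie at 2837 RPKM or above in every library, Krt1 and Krt10 lie below 8 RPKM, and co-cultured T cells (purple) lie between the keratinocytes and the other T cells for most of the abundant keratins.

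Among the basal keratins, Krt14 (chr11:100203162-100207548, minus strand, 8 exons) had the highest mean level of any keratin. It reached 7240 and 8719 RPKM in cells grown alone and 7926 and 11836 RPKM after co-culture, and it ranked first or second among all genes in each of these libraries. Its type II partner Krt5 (chr15:101707070-101712898, minus strand, 9 exons) stood at 3550 and 2837 RPKM alone and at 4556 and 3812 RPKM after co-culture, so that the 2 co-cultured libraries lay above the 2 grown alone. Krt15, a type I keratin of basal cells and of the hair follicle bulge, was found at 1.08 and 0.173 RPKM alone and at 0.116 and 0.678 RPKM after co-culture, which is far below its class mates in every library.

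The stress keratins were as abundant as the basal ones. Krt6a (chr15:101689910-101694307, minus strand) stood at 6418 and 4678 RPKM alone and at 6239 and 5237 RPKM after co-culture. Krt17 (chr11:100256217-100261029, minus strand) stood at 5327 and 3525 RPKM alone and at 6729 and 4171 RPKM after co-culture. Krt6a lay above Krt5 in both groups with no overlap, and Krt17 lay above Krt5 within each of the 4 libraries, while the ranges of Krt6a and Krt17 overlapped in both groups. Krt16 (chr11:100246091-100248902, minus strand) stood at 1867 and 2521 RPKM alone and at 1025 and 1800 RPKM after co-culture. Krt6b (chr15:101676023-101680287, minus strand) stood at 709 and 1463 RPKM alone and at 306 and 547 RPKM after co-culture. Both of these lay lower in each co-cultured library than in each library grown alone, whereas Krt6a and Krt17 overlapped.

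Krt6a and Krt6b are neighbouring copies, and the split of reads between them rests on few differing bases. Their coding sequences of 1662 and 1665 bases in GENCODE were identical at 97.6% of aligned columns, with 37 mismatches and a longest identical run of 280 bases, while the reads were 59 bases long. The 60 bases of exon 4 in which they differ most, at 10 positions set in capitals, lie at chr15:101692484-101692543 for Krt6a and chr15:101678303-101678362 for Krt6b (GRCm38, both on the minus strand, read 5′ to 3′) and show how a read is told apart.
Krt6a: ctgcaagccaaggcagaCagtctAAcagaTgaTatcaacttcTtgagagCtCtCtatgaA
Krt6b: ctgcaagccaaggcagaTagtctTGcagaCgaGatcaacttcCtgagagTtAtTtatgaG
Of all 59-base windows in the transcript, 53.0% were found in no other gene for Krt6a and 53.4% for Krt6b. The deposited unique reads gave nearly the same shares, 51.7% and 53.5% of exon reads over the keratinocyte libraries. The amounts of Krt6a and Krt6b, which share most with each other, are therefore uncertain as far as shared reads could be split between them.

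Krt14 and Krt16 also share coding sequence. The longest identical stretch inside an exon, 134 bases of exon 1, lies at chr11:100207017-100207150 in Krt14 and chr11:100248476-100248609 in Krt16 (GRCm38, minus strand, 5′ to 3′) and is longer than a read, so that reads from it fit both genes.
Krt14 and Krt16: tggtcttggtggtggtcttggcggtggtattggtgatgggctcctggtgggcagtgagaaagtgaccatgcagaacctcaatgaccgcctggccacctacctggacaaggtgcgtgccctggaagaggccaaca
Krt16 shared 144 of its 1507 windows of 59 bases with Krt14 and more, 355, with the pseudogene Gm11597, which left 66.9% of its windows in no other gene. Unique reads made up 87.9% of the exon reads of Krt14 and 88.2% of those of Krt16, against 98.7% for Krt17 and 91.3% for Krt5. Krt8 was the other keratin with a low share, 53.2%. Its transcript shared 25.2% of its windows with the pseudogene Krt8-ps and none with another coding gene. Krt18, Krt1, Krt80, Krt90, Krt78, Krt42, Krt75 and Krt23 had no shared window and no shared read.

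The suprabasal keratins were almost absent. Krt1 (chr15:101845426-101850794, minus strand) was found at 4.70 and 7.10 RPKM in cells grown alone but at 0.509 and 0.840 RPKM after co-culture, with 219 and 297 reads against 19 and 34. The groups did not overlap. Krt10, the usual type I partner of Krt1, stood at 1.52 and 0.778 RPKM alone and at 0.747 and 0 RPKM after co-culture. T cells gave values of the same size for Krt10, from 0 to 1.21 RPKM, so that its reads in the keratinocyte libraries cannot be told apart from that level. Krt2 had a read in 1 library only, a co-cultured keratinocyte library.

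The simple epithelial keratins differed more between replicates than between groups. Krt8 stood at 167 and 40.8 RPKM alone and at 173 and 28.4 RPKM after co-culture. Its type I partner Krt18 stood at 96.1 and 14.8 RPKM alone and at 149 and 16.4 RPKM after co-culture. Krt7 stood at 105 and 23.8 RPKM alone and at 82.8 and 11.2 RPKM after co-culture. In each case the library numbered 1 in the labels lay at least 4-fold above the library numbered 2, in both groups. For Krt18 this was a 6.48-fold difference alone and a 9.11-fold difference after co-culture. Krt4, a type II keratin of non-cornifying stratified epithelia such as the oesophagus, moved likewise, with 6.69 and 0.330 RPKM alone and 2.68 and 0.398 RPKM after co-culture. A threshold of 4-fold in both groups, set after these values were seen, was met by these 4 of the 22 keratins with enough reads for testing and by 0.527% of 12515 genes, and in the opposite direction by Krt83 among the keratins and by 2.14% of genes. The T cell markers lay in the opposite direction, 3.63 to 8.17 times higher in the library numbered 2 alone and 2.21 to 6.05 times higher after co-culture, and their part in the keratin values was not tested. Krt19 stayed at 0.0769 to 0.468 RPKM.

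Outside the 4 classes, 6 keratins reached a mean of 5 RPKM in a group. Krt90, a type II keratin, was the highest, with 384 and 397 RPKM alone and 297 and 141 RPKM after co-culture. Krt80, a type II keratin of differentiating epithelia, stood at 183 and 104 RPKM alone and at 92.0 and 13.04 RPKM after co-culture. Krt78, a type II keratin of the suprabasal epidermis, stood at 99.6 and 39.4 RPKM alone and at 36.7 and 3.51 RPKM after co-culture. For each of these the 2 co-cultured libraries were the lowest of the 4. Krt42, a type I keratin, went the other way, with 22.2 and 16.4 RPKM alone and 36.3 and 33.6 RPKM after co-culture. Krt75, the type II keratin of the companion layer of the hair follicle, was nearly the same in all 4 libraries, at 21.4 and 16.9 RPKM alone and 21.4 and 17.7 RPKM after co-culture. Krt23 stood at 11.3 and 3.98 RPKM alone and at 4.08 and 2.36 RPKM after co-culture.

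The keratins of hair and of the inner root sheath, 22 genes, were not expressed at 5 RPKM in any keratinocyte library. The highest hair keratin there was Krt83 with 2.52 RPKM, and the highest of the inner root sheath was Krt25 with 0.335 RPKM. Krt4, Krt84 and Krt83 were the highest of the remaining keratins by their mean over the keratinocyte libraries. Krt84 stood at 1.99 and 2.15 RPKM alone and at 1.23 and 1.75 RPKM after co-culture. Krt83 stood at 0.240 and 1.24 RPKM alone and at 0.0749 and 2.52 RPKM after co-culture, but at 0.576 and 3.87 RPKM in activated T cells, so that it was no marker of keratinocytes in these libraries.

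To ask which keratins differed in keratinocytes after co-culture with T cells, the read counts of the 4 keratinocyte libraries were compared by edgeR's quasi-likelihood test with Benjamini-Hochberg adjustment over 12515 genes. Of the 53 keratins, 22 had enough reads for the test and 31 did not, none of these with more than 32 reads in a keratinocyte library. No keratin passed an adjusted p of 0.05, and neither did any other gene (percent called 0 in each direction). At an unadjusted p of 0.05, 386 genes were higher (3.08%) and 515 lower (4.12%), among them 1 keratin higher and 2 lower. The median log2 fold change was -0.46 over the 22 keratins and 0.02 over all genes.

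Krt1 had the smallest p among the keratins, with a log2 fold change of -3.04 ± 0.56 (SE; adjusted p = 0.658 by edgeR). DESeq2 called Krt1 lower (log2 fold change -3.03, adjusted p = 0.00105), the only keratin it called, where it called 0.703% of genes higher and 0.783% lower; limma called none. Krt79, a type II keratin of the hair canal named here after its values were seen, stood at 1.58 and 1.32 RPKM alone and at 0.188 and 0.0578 RPKM after co-culture, where 6 and 2 reads were counted, and was not called (log2 fold change -3.48 ± 0.96, adjusted p = 0.658 by edgeR).
The third was Krt42, with a log2 fold change of 0.93 ± 0.30 (adjusted p = 0.658 by edgeR).

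Among the abundant keratins, no fitted change passed the test. The basal keratins Krt5 and Krt14 had log2 fold changes of 0.46 ± 0.43 and 0.39 ± 0.53. The stress keratins Krt6a and Krt17 had 0.12 ± 0.47 and 0.36 ± 0.49, while Krt16 and Krt6b had -0.55 ± 0.50 and -1.27 ± 0.59. Krt90, Krt80, Krt78 and Krt23 had -0.79 ± 0.44, -1.42 ± 0.90, -1.76 ± 1.09 and -1.18 ± 0.64. The simple epithelial keratins had 0.62 ± 1.23 for Krt18, -0.41 ± 1.07 for Krt7 and 0.00 ± 1.00 for Krt8, whose sign turned under DESeq2, with library size in place of TMM and with unique reads alone. The adjusted p of each of these 13 keratins was 0.658 or more by edgeR.

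**Figure D2:**
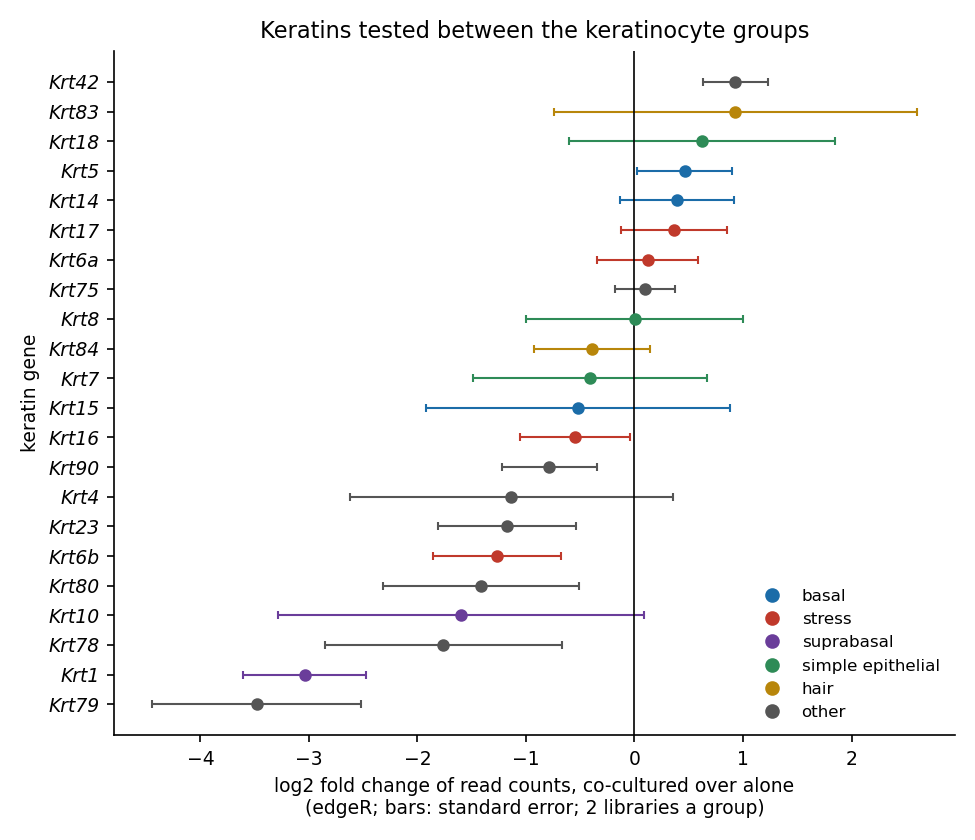
Log2 fold change of read counts, co-cultured over alone keratinocytes (horizontal axis; edgeR, bars are the standard error, 2 libraries a group), for the 22 keratins tested, coloured by class. Krt1 and Krt79 lie furthest to the left at -3.04 and -3.48, Krt42 lies at 0.93, and none of the 22 passed the adjusted test.

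The 2 libraries of a group did not overlap with those of the other for 11 of the 22 keratins. Co-cultured libraries lay below for 9 of them (Krt1, Krt10, Krt16, Krt6b, Krt78, Krt79, Krt80, Krt84 and Krt90 in the order of their names) and above for Krt5 and Krt42, against 24.3% of all genes below and 19.8% above. The co-cultured library numbered 2 was the lowest for Krt78 and Krt80, and without the co-cultured library numbered 1 edgeR called 3 keratins lower: Krt1 (adjusted p = 0.0371), Krt78 (adjusted p = 0.0105) and Krt80 (adjusted p = 0.0121), the lone co-cultured library then being assumed to vary like the others. That fit called 8.06% of 13113 genes lower and 0.816% higher, and 3 of 25 keratins lower.

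The change of a gene with co-culture moved with its length. The median log2 fold change of all genes went from 0.38 for exon lengths under 1000 bases to -0.45 for 5000 bases or more. Among keratins, 15 of the 22 tested lie between 1500 and 2500 bases, where the medians were 0.33 and 0.22. Krt80 and Krt78, with 4487 and 3437 bases, lie where the medians were -0.06 and 0.12. With this trend taken out, chosen after it was seen, no keratin was called by edgeR.

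**Figure D3:**
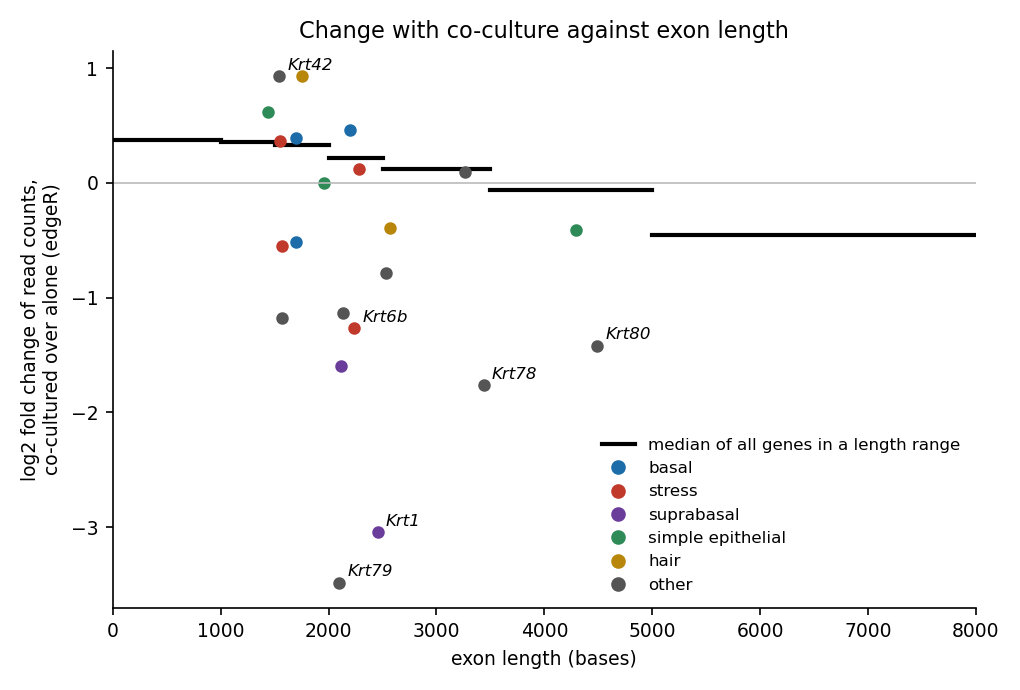
Log2 fold change, co-cultured over alone (vertical axis, edgeR), against exon length in bases for the 22 keratins tested (points, by class), with the median of all genes in each length range as black bars. The bars go from 0.38 down to -0.45, and Krt1, Krt79, Krt78 and Krt80 lie below the bar of their length.

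Summed by class, suprabasal keratins stood at 6.22 and 7.88 RPKM alone and at 1.28 and 0.840 RPKM after co-culture. Basal keratins stood at 10791 and 11556 RPKM alone and at 12482 and 15649 RPKM after co-culture. Neither pair of groups overlapped, but the exact permutation test of 2 against 2 libraries cannot go below p = 0.333 (two-sided), which both reached. Stress keratins stood at 14321 and 12187 RPKM alone and at 14298 and 11755 RPKM after co-culture (p = 0.667 by the same exact test), and their difference turned sign with unique reads. Simple epithelial keratins stood at 368 and 79.7 RPKM alone and at 405 and 56.0 RPKM after co-culture (p = 1.00, exact permutation). The ratio of type II to type I RPKM was 0.7998 and 0.649 alone and 0.744 and 0.550 after co-culture, with overlap. Within the stress class the ratio of Krt6b to Krt6a was 0.110 and 0.313 alone and 0.0490 and 0.105 after co-culture, and that of Krt16 to the basal Krt5 was 0.526 and 0.889 alone and 0.225 and 0.472 after co-culture.

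**Figure D4:**
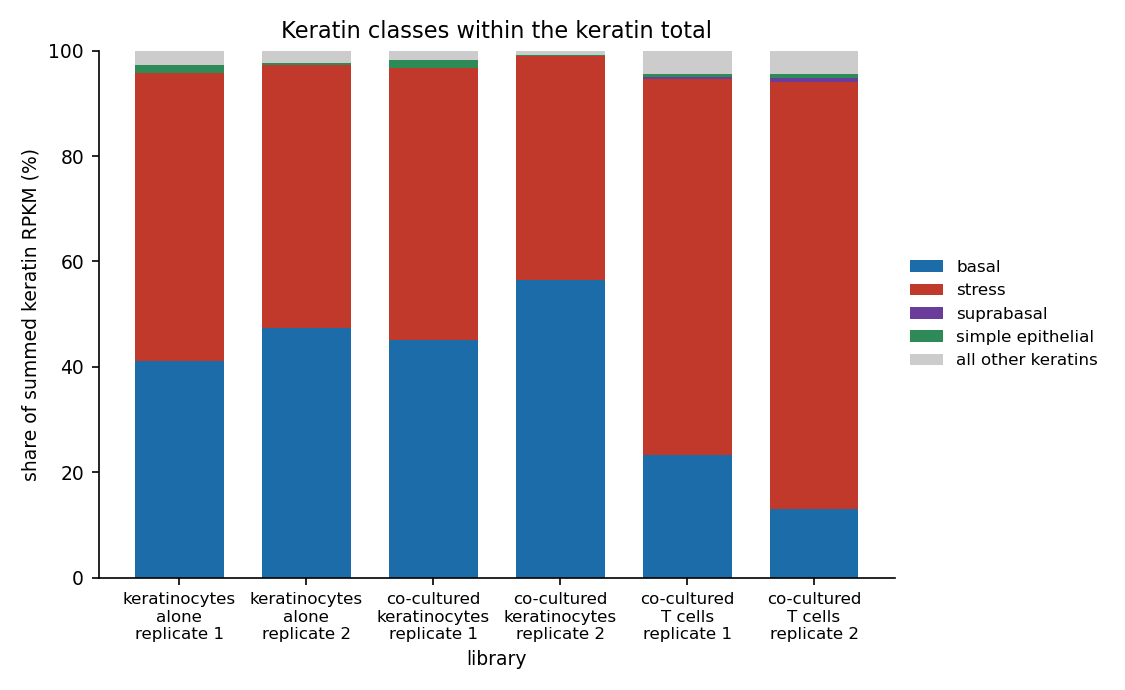
Share of the summed keratin RPKM (%) held by each class, as a stacked bar for each of the 4 keratinocyte and 2 co-cultured T cell libraries. Basal keratins hold 41.2% to 56.5% in keratinocytes and 23.3% and 13.02% in co-cultured T cells, where stress keratins hold 71.4% and 80.997%.

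Genes that anchor, bundle or regulate keratins were followed on a list of 20, mostly of desmosomes, plakins and filaggrin-like proteins; Flg and Trp63 on it are also on marker lists below. Of these 19 were tested, 18 had a negative log2 fold change, 7 of them with an unadjusted p under 0.05 (4.12% of all genes), none passed the adjusted test by edgeR, and the median was -2.001. Jup, encoding plakoglobin of desmosomes and adherens junctions, stood at 824 and 715 RPKM alone and at 574 and 119 RPKM after co-culture. Pkp1, a desmosomal plakophilin, stood at 653 and 538 RPKM alone and at 356 and 69.9 RPKM after co-culture. Dsp, encoding desmoplakin, which ties keratin filaments to desmosomes, stood at 581 and 459 RPKM alone and at 106 and 13.04 RPKM after co-culture (log2 fold change -3.11 ± 1.01, adjusted p = 0.658 by edgeR). All 3 lay lower in both co-cultured libraries, lowest in the library numbered 2. The exons of Dsp come to 9592 bases and those of Jup to 3220, in length ranges whose medians were -0.45 and 0.12. Other genes of the list lie in both ranges, such as Dst with 34416 and Plec with 17666 bases, and Pkp2 with 2918 and Tchp with 2882. The list was not tested apart from length.

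The other intermediate filament genes gave a list of 16, of which 6 were tested, with 3 positive and 3 negative log2 fold changes and none called. Lmna, a nuclear lamin, stood at 205 and 142 RPKM alone and at 193 and 59.2 RPKM after co-culture. Vim, the filament of mesenchymal and blood cells, stood at 20.8 and 78.9 RPKM alone and at 27.5 and 131 RPKM after co-culture, in the order of the T cell markers. Lmnb1 stood at 20.2 and 11.4 RPKM alone and at 22.3 and 10.2 RPKM after co-culture.

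Genes of the cornified layers were followed beside Krt1. All 7 of a marker list of cornifying keratinocytes (Ivl, Lor, Flg, Sbsn, Krtdap, Dsg1a and Dsc1) had a negative log2 fold change with an unadjusted p under 0.05 (4.12% of all genes), with a median of -3.79 and none called after adjustment by edgeR. Their summed level was 1041 and 1182 RPKM alone and 455 and 228 RPKM after co-culture. Of 9 keratinocyte genes other than keratins, 8 had a negative log2 fold change, none with an unadjusted p under 0.05. All 8 T cell markers had a positive one, with a median of 0.84 and none called. Keratins as a whole did not fall, with 5.34% and 4.95% of exon reads alone and 5.53% and 5.62% after co-culture. For the genes that lay lower, fewer keratinocytes in the lysate and less of their RNA per keratinocyte cannot be told apart in these bulk samples.

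Keratins separated keratinocytes from T cells by a wide margin. Keratins took 0.000678% to 0.00162% of exon reads in activated T cells and T cells in keratinocyte medium, 108 to 251 reads a library. In the fit over all 10 libraries, 19 of 23 keratins tested were higher in keratinocytes alone than in activated T cells, and none lower, where 22.5% of 13394 genes were higher and 13% lower. The log2 fold change was 15.55 ± 0.79 for Krt6a and 14.14 ± 0.73 for Krt5 (adjusted p = 4.7e-05 for each by edgeR). Krt15, Krt10, Krt83 and Krt222 were not called. Between the co-cultured cells, 15 of 23 were higher in keratinocytes and none lower, where 17.0% of genes were higher and 6.73% lower, with 9.99 ± 0.62 for Krt5 (adjusted p = 0.000189 by edgeR). Most of the 23 entered the first of these tests through libraries other than activated T cells, and their direction was fixed by that. Among them Krt1, Krt4, Krt6b, Krt7, Krt15, Krt23, Krt75, Krt78, Krt79 and Krt80 had no read in activated T cells. Krt1, Krt4, Krt8, Krt15, Krt42, Krt78, Krt79 and Krt84 had too few reads for the T cell fit. Their direction between the co-cultured cells was fixed likewise.

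T cells that had been with keratinocytes held more keratin reads than other T cells, 0.0575% and 0.0285% of their exon reads, or 8050 and 3671 reads. Against T cells in keratinocyte medium, 6 of 15 keratins tested were called higher and none lower, where 0.261% of 11863 genes were higher and none lower by edgeR. In a fit of medium and activated T cells alone only 4 keratins had enough reads, and Krt6b, Krt80, Krt75 and Krt23 had none in either group, so that most of the 15 entered the test through the co-cultured libraries, where they were high, and their direction was fixed by that. At an unadjusted p of 0.05, 10 keratins were higher and none lower, against 2.70% and 0.750% of genes, and DESeq2 called 7 keratins higher and none lower, against 0.666% and 0.0674% of genes. The 6 called by edgeR were Krt17, Krt6a, Krt16, Krt80, Krt14 and Krt6b, which include all 4 stress keratins.

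Krt17 stood at 0.250 and 0.860 RPKM in T cells in keratinocyte medium and at 98.3 and 64.2 RPKM in co-cultured T cells (log2 fold change 7.17 ± 0.67, adjusted p = 0.00714 by edgeR). Krt6a stood at 0.256 and 0.356 RPKM in medium and at 41.9 and 16.3 RPKM in co-culture (6.55 ± 0.63, adjusted p = 0.00724 by edgeR). Krt16 had 0 and 8 reads in medium and 49.9 and 33.7 RPKM in co-culture (8.05 ± 0.95, adjusted p = 0.0176 by edgeR). For each of the 3, both co-cultured libraries lay above both libraries in medium, and the ratio of the mean RPKM was 146 for Krt17, 95.2 for Krt6a and 282 for Krt16, with 95% counting intervals of 99.5 to 214, 63.7 to 152 and 136 to 624. These ratios rest on single libraries. That of Krt17 was 324 without the second library in medium and 94.5 without the first, that of Krt6a was 53.3 without the first co-cultured library, and that of Krt16 was 141 without the first library in medium, the second holding all of its 8 reads. Krt14 stood at 0.419 and 1.06 RPKM in medium and at 61.6 and 16.8 RPKM in co-culture (5.68 ± 0.80, adjusted p = 0.0449 by edgeR).

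Krt6b and Krt80 had no read in T cells in keratinocyte medium or in activated T cells. With 16.3 and 4.96 RPKM in co-cultured T cells, Krt6b was at least 129-fold higher than the floor of 3 reads per library in medium. With 5.78 and 2.61 RPKM, Krt80 was at least 102-fold higher. Without the first co-cultured library these bounds were 60.3 for Krt6b and 63.7 for Krt80. The calls of Krt14, Krt6b and Krt80 (adjusted p = 0.0449, 0.0460 and 0.0353 by edgeR) were lost without either library of T cells in medium and with library size in place of TMM. Those of Krt14 and Krt6b were also lost with unique reads (adjusted p = 0.0504 and 0.0621 by edgeR), that of Krt14 in a fit of the 2 groups alone (adjusted p = 0.0694 by edgeR) and that of Krt6b with DESeq2 (adjusted p = 0.843). The calls of Krt17, Krt6a and Krt16 held in each of these alternatives.

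Krt5 stood at 0.118 and 0.158 RPKM in medium and at 5.74 and 2.38 RPKM in co-culture, but it was not called (4.84 ± 0.90, adjusted p = 0.134 by edgeR). Krt90 had 1 read in medium against 85 and 38 in co-culture, a ratio of mean RPKM of 143 with a 95% counting interval of 24.1 to 5451. Krt75 and Krt23 had no read in medium and were at least 7.46-fold (4.22-fold without the first co-cultured library) and 6.61-fold higher in co-culture, and neither was called. Krt7, Krt18, Krt10, Krt83 and Krt222 had reads in both groups and log2 fold changes between -0.17 and 1.26, with an adjusted p of 1.00 by edgeR.

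Against activated T cells, a comparison that shares the co-cultured libraries with the last, Krt5 (4.52 ± 0.88, adjusted p = 0.0193 by edgeR) and Krt90 (6.79 ± 1.66, adjusted p = 0.0398 by edgeR) were called higher beside the same 6, which made 8 of 15 higher and none lower, where 4.59% of genes were higher and 5.72% lower. Over all genes 544 were higher and 678 lower, or 396 and 762 with library size in place of TMM. The call of Krt5 was lost without the first activated or the first co-cultured T cell library (adjusted p = 0.0963 and 0.145 by edgeR), and that of Krt90 without any 1 of the 4 libraries compared (adjusted p = 0.0626 to 0.179 by edgeR). DESeq2 did not call Krt6b here (adjusted p = 0.0831). Between T cells in medium and activated T cells none of 15 keratins was called, where 2.32% of genes were higher and 4.22% lower by edgeR. No call was possible for the 4 of the 15 without a read in either group, and only 4 had enough reads for a fit of these groups alone. At an unadjusted p of 0.05, Krt7 was higher and no keratin lower, against 11% and 14% of genes, and DESeq2 and limma called none.

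Some ratios between keratins in co-cultured T cells lay outside those of the keratinocyte libraries, while that of Krt6b to Krt6a overlapped. Taken as a share of the mean RPKM in co-cultured keratinocytes, 14 keratins ranged from 0.0525% to 7.99%, with a median of 0.945%. Leaving out 1 of the 4 libraries moved this percentage by over 1.5 times for 11 of the 14, and the median to between 0.384% and 1.95%. Krt80 was at 11.01% and 4.98% in the 2 T cell libraries, Krt16 at 3.53% and 2.38% and Krt6b at 3.82% and 1.16%. Krt78 was at 5.52% in the first library, with 58 reads, and had no read in the second. Krt17 was at 1.80% and 1.18%, Krt6a at 0.731% and 0.284% and Krt14 at 0.623% and 0.170%, while Krt5 was at 0.137% and 0.0569%. The ratio of Krt16 to Krt5 was 8.69 and 14.2 in co-cultured T cells, above the highest value of 0.889 in keratinocytes. The ratio of Krt17 to Krt5 was 17.1 and 27.0 against 1.09 to 1.501 in keratinocytes. Within the basal class the ratio of Krt14 to Krt5 also lay higher, at 10.7 and 7.05 against 1.74 to 3.10 in keratinocytes. Ratios to Krt5 therefore do not set stress keratins apart from Krt14. That of Krt6b to Krt6a was 0.389 and 0.304 in co-cultured T cells, which overlapped with the 0.0490 to 0.313 of the keratinocyte libraries. The ratio of summed stress to basal RPKM was 3.07 and 6.22 in co-cultured T cells against 0.751 and 1.15 in co-cultured keratinocytes (exact permutation p = 0.333, the smallest that 2 against 2 libraries can give).

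**Figure D5:**
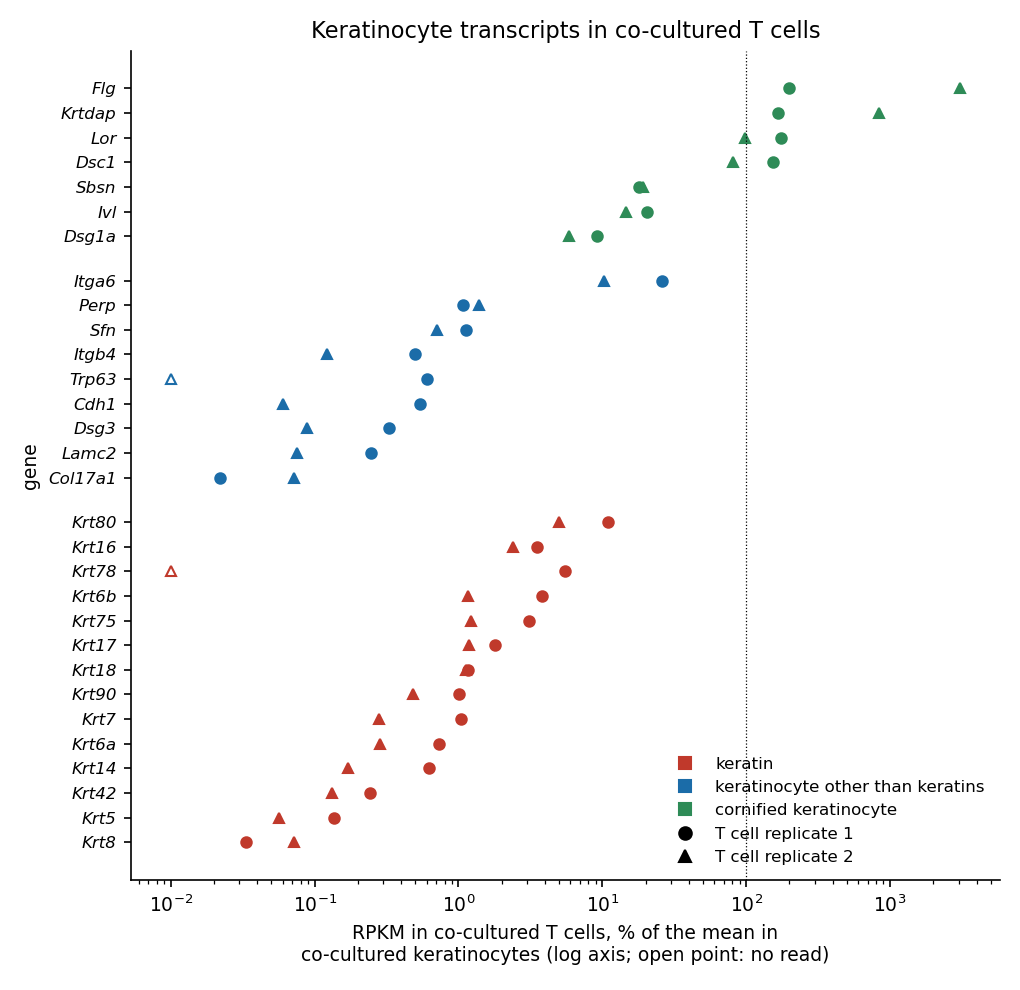
RPKM in each co-cultured T cell library as a percentage of the mean in co-cultured keratinocytes (log axis), for 14 keratins, 9 other keratinocyte genes and 7 genes of cornifying keratinocytes; circles and triangles are the 2 T cell libraries, open points had no read, and the dotted line marks 100%. Keratins range from 0.0525% to 7.99% in the mean of the 2 libraries, and cornified genes from 7.55% to above 100%, among which Flg has a keratinocyte mean of 0.0138 RPKM, under the floor.

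Other keratinocyte transcripts in the same T cell libraries were taken as a share in the same way. The 9 keratinocyte genes other than keratins ranged from 0.0468% for Col17a1, a hemidesmosomal collagen of basal cells, to 18.1% for Itga6, with a median of 0.303%, so that their range overlapped with that of the keratins. Itga6, an integrin, was at 17.2% and Sfn at 1.24% already in T cells in medium, while Perp, a tetraspan protein of desmosomes, was at 1.23% in co-cultured T cells and at 0.0622% in medium. Of the 7 cornified genes, Krtdap and Sbsn exceeded 10 RPKM in co-cultured keratinocytes, and the other 5 had means of at most 2.12 RPKM there, which leaves their percentages imprecise. Krtdap stood at 20.7 and 103 RPKM in co-cultured T cells and at 10.4 and 14.4 RPKM in co-cultured keratinocytes, and Sbsn at 58.2 and 62.3 RPKM against 439 and 210 RPKM. In T cells in keratinocyte medium 6 of the 7 had no read. Where these transcripts came from was not tested.

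The co-culture effect was then compared between the cell types, as the change in keratinocytes minus the change of co-cultured T cells against T cells in medium, over 8 libraries. It was lower in keratinocytes for 5 of 23 keratins and higher for none, where it was lower for 0.523% and higher for 0.0530% of 13202 genes: Krt6a, Krt90, Krt17, Krt6b and Krt16. T cells in medium held no read of Krt6b, 1 of Krt90 and 8 of Krt16. These keratins entered the fit through libraries where they were high, and their direction was fixed by that. The difference was -6.44 ± 0.77 on the log2 scale for Krt6a (adjusted p = 0.0196 by edgeR) and -6.82 ± 0.87 for Krt17 (adjusted p = 0.0237 by edgeR). Krt5 and Krt14 were not called, with -4.40 ± 0.71 (adjusted p = 0.0588 by edgeR) and -5.29 ± 1.04 (adjusted p = 0.106 by edgeR). None of the 5 calls held without either library of keratinocytes alone or without the first library of T cells in medium, in accession order.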

How the data were processed

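Poly(A) RNA of 10 libraries was sequenced as single 59-base reads and, by the study's methods, mapped to genes in CLC Genomics Workbench; the submitters' notes name GRCm38. The deposited tables give, per gene and library, total and unique exon read counts and RPKM, which the authors computed from total exon reads, exon length and mapped reads; RPKM was written with decimal commas and read as such. Whether counting used strand was not given in the sources used here. By the methods the shared culture medium was keratinocyte medium and X-VIVO 15 at 4 to 1. No sample column was left unmapped (0).

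Counts were tested with edgeR 4.0.16 (filterByExpr, TMM, glmQLFit, glmQLFTest; R 4.3.3) and Benjamini-Hochberg adjustment over all genes tested at 0.05: keratinocytes in a fit of 4 libraries, T cells in a fit of 6, cell types in a fit of 10 and the difference of effects in a fit of 8. DESeq2 1.42.0 and limma 3.58.1 on log2(RPKM + 1) or log2(RPKM + 0.1) were alternatives, as were library size, no filter, unique reads, a replicate block and leaving out each library. Taking out a trend with gene length, and leaving out each library in the T cell ratios and percentages, were alternatives chosen after the data were seen. Class sums of RPKM were compared by exact permutation tests. Scripts were tested on simulated data. Intervals and floors of 3 reads cover counting error only, at 95%.

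Named were the 14 keratins of the 4 classes, any other keratin with a mean of 5 RPKM in a group or an adjusted call in keratinocytes, the highest 3 of the rest, and the highest 3 of each list of related genes. The members, lists and this rule were chosen with earlier results of these data known. Replicate numbers are from the labels for keratinocytes and activated T cells, and in accession order for the other T cells. Transcript windows and printed sequences were read from the GENCODE annotation of GRCm38.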

Additional observations from a re-analysis of the deposited data

Results flagged for a closer look

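The co-culture effect differed between keratinocytes and T cells for 5 keratins by a test of the difference itself (edgeR, fit over 8 libraries): Krt6a (adjusted p = 0.0196), Krt17 (adjusted p = 0.0237), Krt90 (adjusted p = 0.0237), Krt6b (adjusted p = 0.0336) and Krt16 (adjusted p = 0.0357). For Krt16 the RPKM went from 1867 and 2521 to 1025 and 1800 in keratinocytes and from 0 and 0.296 to 49.9 and 33.7 in T cells. For Krt90 it was 384 and 397 against 297 and 141 in keratinocytes, and 0 and 0.0229 against 2.20 and 1.06 in T cells. The size of the difference rests on T cell libraries in medium with at most 8 reads for Krt16, 1 read for Krt90 and none for Krt6b, so that it is no measure of fold. For these keratins the direction was fixed by that as well. No call held without either library of keratinocytes alone or without the first library of T cells in medium; without the first co-cultured T cell library Krt6a alone was called (adjusted p = 0.0411 by edgeR), and DESeq2 called 11 keratins lower beside 2.24% of 13202 genes, against 0.523% by edgeR.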

How the results depend on the processing

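In keratinocytes the count of keratins called lower was 0 by edgeR and 1 with DESeq2 (Krt1, beside 0.783% of all genes lower). It was 3 with the length trend taken out together with the replicate block (Krt1, Krt6b and Krt78, with 99 genes higher and 113 lower overall). The count also rose without the co-cultured library numbered 1. In T cells co-cultured against medium, the count called higher was 6 beside 0.261% of 11863 genes. With library size in place of TMM it was 3, beside 21 of 11863 genes. It also fell without either library of T cells in medium. Between the co-cultured cells, limma with either pseudocount called 1 of 23 keratins lower, where it called 1282 and 1291 of 13394 genes lower. For the difference of effects the count was 5 (0.523% of all genes lower). It was 11 with DESeq2 (2.24%), 10 without a filter (1.09%) and 3 with limma on log2(RPKM + 1) (0.447%). It fell when any library of keratinocytes alone or of T cells was left out. The log2 ratio of suprabasal RPKM, co-cultured over alone, was -3.13 where only members at a mean of 5 RPKM were summed. With each library left out, the ratio co-cultured over alone went from 0.16 to 0.49 for basal and from -1.999 to 1.53 for simple epithelial keratins, and the stress-to-basal ratio, T cells over keratinocytes, from 1.69 to 2.71. The cause of these changes was not tested.

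Signs turned in keratinocytes only for keratins that were not called. Krt8 (0.00) went to -0.040 with DESeq2, -0.048 with library size, -0.019 with unique reads, -0.23 and -0.24 with limma, -0.060 in a fit of 10 libraries and -0.22 without the length trend. Without the length trend Krt6a was at -0.057. Leaving out 1 library at a time, the fitted change went from -1.72 to 1.29 for Krt8, -2.40 to 1.26 for Krt15, -0.025 to 0.69 for Krt14, -2.38 to 0.97 for Krt7, -3.25 to 2.60 for Krt83, -0.040 to 0.24 for Krt75, -0.069 to 0.32 for Krt6a, -2.98 to 2.20 for Krt4 and -1.61 to 2.46 for Krt18. Of 877 values of single keratins under alternatives, 777 kept their direction and side of the threshold. All 25 values that turned sign were in keratinocytes co-cultured against alone. The other values include comparisons in which the direction of keratins was fixed by how they entered the fit, so that the pooled count is no measure of stability.

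The keratinocyte groups share replicate numbers, and same-numbered libraries deviated together (r = 0.528 over 12515 genes, 0.624 over 22 keratins), and the design text speaks of 2 parallel experiments, but nothing says that a number marks one of them. With the replicate block 0 keratins were called (2 genes in all), with Krt8 at -0.16, and at an unadjusted p of 0.05 the counts went from 1 keratin higher and 2 lower to 2 and 8, and over all genes from 386 and 515 to 1067 and 1681; with the length trend also taken out, Krt8 was at -0.38, Krt6a at -0.036 and Krt83 at -0.10. Library size in place of TMM moved the median log2 fold change of all genes from -0.01 to -0.17 in co-cultured against activated T cells and from 0.14 to -0.02 in keratinocytes against activated T cells, and from -0.01 to -0.13 in medium against activated. Leaving out a filter gave 11 genes higher in keratinocytes, against 0. With 2 libraries a group, no exact test of a single value can fall below p = 0.333.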
